A study of Homo sapiens with 6 samples.

Results

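The insulin-like growth factor (IGF) axis was followed in SH-SY5Y neuroblastoma cells through 10 genes: the ligand gene IGF2 and its neighbour H19, the receptors IGF1R, IGF2R and INSR, the binding proteins IGFBP2, IGFBP4 and IGFBP5, and the mRNA-binding proteins IGF2BP1 and IGF2BP3. They were taken by gene name from the deposited tables, where they are 10 of 32575 genes with a row in at least 1 library and 10 of the 28388 genes that passed the filter on low values. The 10 were chosen from the measured differences among these same 6 libraries, so their values are given as a description with no test. SH-SY5Y is an established human neuroblastoma line of the sympathetic nervous lineage.

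The study asked which genes depend on CSA (ERCC8) and CSB (ERCC6), the proteins of transcription-coupled DNA repair that are mutated in Cockayne syndrome. All cells of all 3 groups carried a lentiviral hairpin, went through puromycin selection and then grew for 2 to 3 weeks. The control group (2 libraries, genotype label WT) carried a control hairpin, the CSA group (2 libraries) a hairpin against CSA, and the CSB group (2 libraries) a hairpin against CSB. The genotype labels of the last pair are CSAmut and CSBmut, although the protocol describes hairpins and no mutation. The knockdown is partial and constant, the number of hairpin sequences per target is not given in the labels, and no rescue library was analysed here. Separate transduction of replicate libraries is not stated in the labels, so the p-values below measure the spread between these libraries, which may be technical.

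The libraries held between 19368272 and 26758162 reads assigned to genes, and 5.73% to 6.51% of the scaled counts were mitochondrial. A scaled count here is the number of reads of a gene divided by 1 size factor per library. ERCC8, the gene of CSA, was at 219 and 217 scaled counts in the control and 61.8 and 57.2 under the CSA hairpin (log2 difference -1.86 ± 0.13 SE, limma adjusted p = 8.75e-07). ERCC6, the gene of CSB, was at 615 and 593 in the control and 258 and 302 under the CSB hairpin (log2 difference -1.11 ± 0.08 SE, limma adjusted p = 2.13e-06). Of 10 markers of noradrenergic neuroblastoma cells, all had reads, with a summed scaled count of 128018 to 155253 per library. That sum hides differences between groups. CHGA, a granule protein, had the order of IGF2, at 15330.3 and 14469 in the control, 22906 and 25867 with CSA and 3566 and 3681 with CSB. DBH was higher with CSA (13986 and 14528, control 8265 and 7961), and GATA3 and ISL1 were lower with CSA and higher with CSB (limma adjusted p at most 0.0169). The part of such differences in the values of the IGF genes was not tested. TH, the rate-limiting enzyme of catecholamine synthesis, was near the floor, between 2.86 and 20.3 scaled counts. It was at 13.9 and 20.3 in the control, 5.42 and 2.86 with CSA and 8.81 and 11.6 with CSB (limma adjusted p = 0.0146 and 0.347).

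IGF2 is a fetal growth factor that signals through IGF1R and the insulin receptor INSR, while IGF2R, the cation-independent mannose 6-phosphate receptor, takes IGF2 up and delivers it to lysosomes. IGF2 and H19 share enhancers and an imprinting control region, so that IGF2 is normally read from the paternal copy and the noncoding RNA H19 from the maternal copy. IGFBPs bind IGFs outside the cell, and IGF2BP proteins bind IGF2, H19, MYC and other RNAs in the cytoplasm. The axis is known in neuroblastoma for autocrine growth.

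H19 carries the hairpin of miR-675, and let-7 miRNAs are known to target the IGF2BP mRNAs. The mature sequences are shown because H19 and MIRLET7BHG, a let-7 host transcript, are described below. They come from RefSeq (GRCh38.p14), with the seed, bases 2 to 8, in capitals.
hsa-miR-675-5p: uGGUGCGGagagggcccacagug
hsa-miR-675-3p: cUGUAUGCccucaccgcuca
hsa-let-7a-5p: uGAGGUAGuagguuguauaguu
hsa-let-7b-5p: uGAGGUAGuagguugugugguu
The 2 let-7 miRNAs share the seed GAGGUAG, and the 2 arms of miR-675 have the seeds GGUGCGG and UGUAUGC. Mature miRNAs were not measured in these libraries, which count reads over the host transcripts.

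Promoters are shown for H19 and for the 3 binding proteins, whose levels moved in a common direction. Each runs from 250 bases before to 50 after the RefSeq start on GRCh38.p14, 5′ to 3′ on the gene's strand. Capitals mark matches to a TATA box (TATAAA) or a GC box (GGGCGG) on either strand. The H19 window is chr11:2001217-2001516, minus strand; the IGFBP2 window is chr2:216633170-216633469, plus strand; the IGFBP4 window is chr17:40443200-40443499, plus strand; and the IGFBP5 window is chr2:216695500-216695799, minus strand.
H19: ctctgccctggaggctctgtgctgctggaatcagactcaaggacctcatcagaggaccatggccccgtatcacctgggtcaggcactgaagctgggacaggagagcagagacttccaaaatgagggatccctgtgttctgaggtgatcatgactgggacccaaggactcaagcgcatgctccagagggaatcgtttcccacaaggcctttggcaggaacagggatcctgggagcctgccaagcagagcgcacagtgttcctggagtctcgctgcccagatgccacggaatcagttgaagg
IGFBP2: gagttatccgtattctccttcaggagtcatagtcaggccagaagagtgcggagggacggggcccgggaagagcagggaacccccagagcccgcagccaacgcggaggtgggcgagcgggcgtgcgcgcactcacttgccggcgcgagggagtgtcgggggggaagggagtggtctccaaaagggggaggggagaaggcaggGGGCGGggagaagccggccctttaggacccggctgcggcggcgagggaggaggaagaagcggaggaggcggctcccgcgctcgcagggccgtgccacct
IGFBP4: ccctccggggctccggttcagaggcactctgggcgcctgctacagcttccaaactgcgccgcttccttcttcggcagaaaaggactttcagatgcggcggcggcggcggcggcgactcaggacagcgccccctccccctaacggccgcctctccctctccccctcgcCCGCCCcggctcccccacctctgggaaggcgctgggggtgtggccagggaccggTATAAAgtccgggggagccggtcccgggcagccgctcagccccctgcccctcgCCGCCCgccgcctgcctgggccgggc
IGFBP5: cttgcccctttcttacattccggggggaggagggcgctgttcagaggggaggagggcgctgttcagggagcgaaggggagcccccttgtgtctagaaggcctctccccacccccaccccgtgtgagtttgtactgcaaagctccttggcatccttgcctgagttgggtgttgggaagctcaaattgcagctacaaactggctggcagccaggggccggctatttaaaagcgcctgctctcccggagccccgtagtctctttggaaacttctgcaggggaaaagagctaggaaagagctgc
Of the 10 genes, 8 had a promoter entry and 10 entries matched in all, 3 of them for IGFBP2, of which the entry with the most CpG dinucleotides is printed. The H19 and IGFBP5 windows held no match to the TATA box, the GC box, the E-box (CACGTG, the same on both strands) or the EGR1 and WT1 motif (GCGGGGGCG, which may overlap a GC box). The IGFBP4 window held 1 TATA box, 29 bases before the start, and 2 GC boxes. IGF2R had 6 GC boxes and 3 E-boxes, INSR 4 GC boxes, IGF1R 2 GC boxes and IGF2BP3 2 E-boxes. Over all 35116 entries, 11.5% held a TATA box, 45% a GC box, 7.26% an E-box and 5.07% the EGR1 and WT1 motif. GC content of the member windows ran from 55.3% to 79.7%.

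IGF2 (ENSG00000167244) lies at chr11:2129112-2141238 on the minus strand of hg38 in the deposited coordinates. It was at 718 and 613 scaled counts in the control, at 3586 and 3769.8 under the CSA hairpin, and at 50.6 and 47.9 under the CSB hairpin. The 3 groups were far apart: every CSA library was above every control library and every CSB library below. The CSA mean was 5.53 times the control mean (log2 difference 2.47 ± 0.09 SE) and the control mean was 13.5 times the CSB mean (log2 difference -3.73 ± 0.09 SE). The CSA mean stood 74.7 times above the CSB mean. The deposited IGF2 span leaves out 8.365 kb of the GENCODE v29 gene at its 5′ side, where upstream starts of IGF2 lie. IGF2-AS, an antisense RNA, overlaps the deposited IGF2 span by 0.738 kb, and as the strand setting of the counting is not given, reads of these genes cannot be told apart there. Its reads were 0 and 5 in the control, 21 and 32 under the CSA hairpin and 1 and 0 under the CSB hairpin, too few for a fold.

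H19 (ENSG00000130600) lies 127.641 kb from IGF2, at chr11:1995163-2001470 on the same strand. It had 6097 and 5752 scaled counts in the control, 18721 and 22476 under the CSA hairpin, and 848 and 835 under the CSB hairpin. The order of the groups was that of IGF2, again with no overlap. The CSA mean was 3.48 times the control mean (log2 difference 1.79 ± 0.07 SE), and the control mean was 7.04 times the CSB mean (log2 difference -2.81 ± 0.07 SE). IGF2 moved by more than H19 in both directions: per kb of gene length, IGF2 was at 0.0532 and 0.0481 of H19 in the control, 0.0864 and 0.0757 under the CSA hairpin and 0.0270 and 0.0259 under the CSB hairpin. These ratios did not overlap between groups. The 2 differences from the control share the control libraries and are given side by side, not as independent results.

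**Figure D1:**
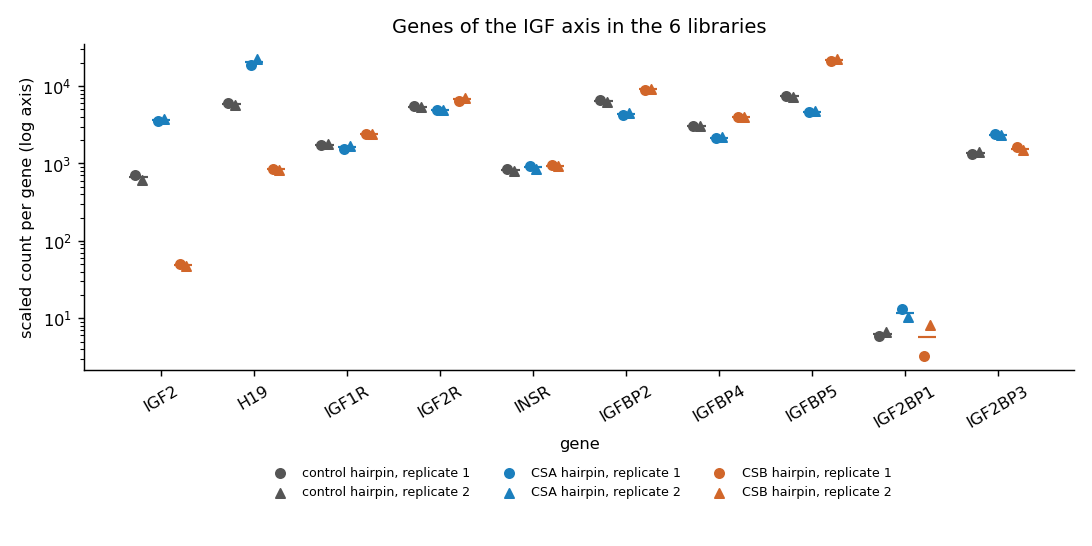
Scaled count of each of the 10 genes (log axis) in the 6 libraries; circles are replicate 1, triangles replicate 2, short lines group means, and colours the control, CSA and CSB hairpins. IGF2 runs from 47.9 under the CSB hairpin to 3769.8 under the CSA hairpin, while INSR stays between 794 and 951.

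The receptors differed much less than the ligand. IGF1R, the tyrosine kinase receptor for IGFs, was at 1728 and 1777 scaled counts in the control, 1542 and 1675 under the CSA hairpin, and 2374 and 2395 under the CSB hairpin. It was highest in both CSB libraries, with a mean 1.36 times the control mean (log2 difference 0.44 ± 0.06 SE), and the CSA difference was -0.12 ± 0.06 SE on the log2 scale. IGF2R, the clearance receptor, was at 5449.6 and 5435 in the control, 4839.6 and 4903 under the CSA hairpin, and 6468 and 7079 under the CSB hairpin. Its groups did not overlap either, with log2 differences of -0.16 ± 0.05 SE (CSA) and 0.31 ± 0.05 SE (CSB). INSR, the insulin receptor, was at 849 and 794 in the control, 938 and 855 under the CSA hairpin, and 951 and 929 under the CSB hairpin. The CSA and CSB libraries of INSR overlapped, and both log2 differences from the control were small, 0.12 ± 0.07 SE and 0.19 ± 0.07 SE.

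The ratio of clearance receptor to ligand differed widely between groups. Per kb, IGF2R was at 3.19 and 3.72 times IGF2 in the control, at 0.567 and 0.546 times under the CSA hairpin, and at 53.6 and 62.1 times under the CSB hairpin. Per kb, IGF2 was above its clearance receptor in both CSA libraries and below it in the other 4. The ratio of IGF1R to INSR per kb was 1.57 and 1.73 in the control, 1.27 and 1.51 under the CSA hairpin, and 1.93 and 1.99 under the CSB hairpin.

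The 3 binding proteins moved against IGF2. IGFBP5, an extracellular IGF-binding protein also known to associate with matrix, was at 7488 and 7282 scaled counts in the control, 4592 and 4764 under the CSA hairpin, and 21334 and 22422 under the CSB hairpin. The CSB mean was 2.96 times the control mean (log2 difference 1.57 ± 0.05 SE) and the control mean 1.58 times the CSA mean (log2 difference -0.66 ± 0.05 SE). Its neighbour IGFBP2, which lies tail to tail with it on chromosome 2 with a gap of 7.668 kb, was at 6679 and 6229, then 4191 and 4547, then 8998 and 9117, in the same order of groups. Its log2 differences were -0.56 ± 0.06 SE (CSA) and 0.49 ± 0.06 SE (CSB). IGFBP4, which inhibits IGF action until the protease PAPPA cuts it, was at 3023 and 3086, then 2121 and 2186, and 3983 in both CSB libraries. The differences of IGFBP4 were -0.50 ± 0.05 SE and 0.38 ± 0.05 SE on the log2 scale.

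**Figure D2:**
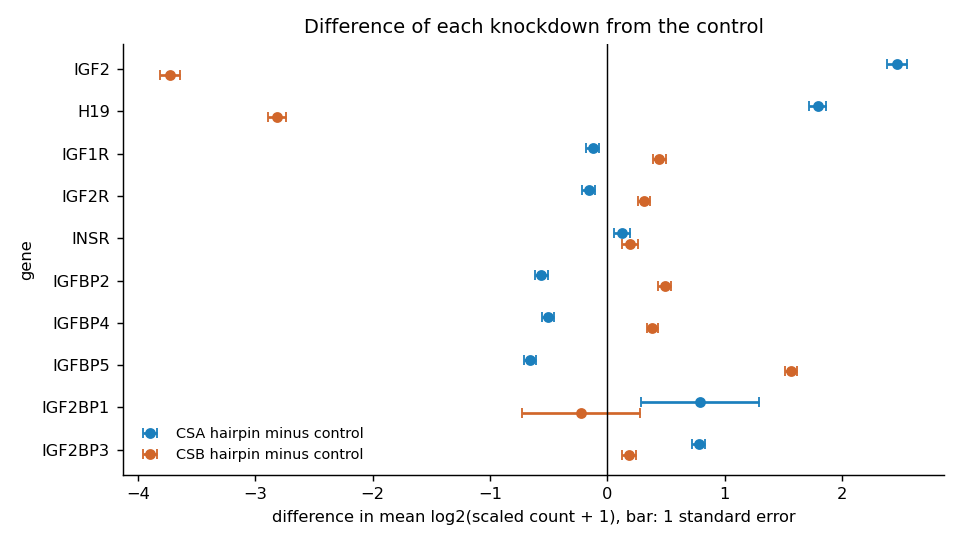
Difference of the CSA (blue) and CSB (orange) group from the control in mean log2(scaled count + 1) for each gene, with 1 standard error as bars. IGF2 and H19 lie to the right in CSA and to the left in CSB; IGFBP2, IGFBP4 and IGFBP5 lie the other way round.

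Fibroblast markers had their lowest sum in CSA and their highest in CSB, the order of the binding proteins. The summed scaled count of DCN, LUM, COL1A1, COL3A1 and PDGFRB, all 5 with reads, ranged from 11178 to 11528 in the control, 6663 to 6891 under the CSA hairpin and 13630 to 14413 under the CSB hairpin. Single markers differed. COL3A1, the largest part of the sum, was at 7693 and 7483 in the control, 4201 and 3819 with CSA and 7598 and 8365 with CSB, where it overlapped the control (limma adjusted p = 0.464). DCN was at 165 and 147, then 139 and 112, then 783 and 683, and did not pass in CSA (adjusted p = 0.0957). LUM did not pass in CSB (adjusted p = 0.221). COL1A1 and PDGFRB passed in both groups, lower with CSA and higher with CSB. The log2 differences of COL1A1 were -0.93 and 0.72 (limma adjusted p = 4.11e-06 and 2.76e-05). Those of PDGFRB were -0.18 and 0.48 (limma adjusted p = 0.0362 and 3.8e-05). With CSA both libraries of each fibroblast marker lay below both control libraries. With CSB they lay above, except for COL3A1. The part of these markers in the values of the binding proteins was not tested, and in bulk RNA fewer cells of a type and less RNA per cell cannot be told apart. Glial markers summed to between 99.2 and 144, with SOX10 at no reads. Epithelial markers summed to between 113 and 133 in the control and CSA libraries and between 68.5 and 72.7 in the CSB libraries, with KRT5 at no reads. Of these, KRT19 was lower with CSB, at 28.6 and 25.6 beside 89.5 and 87.8 in the control. EPCAM went the other way, at 32.8 and 21.2 in the control, 48.8 and 42.0 with CSA and 42.9 and 38.0 with CSB. CDH1 was at most at 10.5. Liver markers, looked at because liver is another site of high IGF2 and H19, summed to at most 11.01, with ALB and AFP at no reads. Of the blood markers described, CD3E had no reads, PTPRC and LYZ were at most at 3.86, and HBB had 373 scaled counts in control replicate 2 and no reads in the other libraries.

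IGF2BP3, a fetal RNA-binding protein that binds IGF2 mRNA, was at 1334 and 1402 scaled counts in the control, 2374 and 2316 under the CSA hairpin, and 1621 and 1492 under the CSB hairpin. Both knockdowns lay above the control, CSA by more (log2 difference 0.78 ± 0.06 SE, 1.71 times) than CSB (0.19 ± 0.06 SE). Over the 16 alternative settings the CSB difference ran from 0.10 to 0.24. IGF2BP1, its relative, was almost silent, with 6 and 7 reads in the control, 12 and 11 under the CSA hairpin and 3 and 10 under the CSB hairpin. Its CSB and control libraries overlapped, and no difference between them was detectable at this depth. IGF2BP2, the remaining relative and not among the 10, was as low, between 3.25 and 9.08 scaled counts.

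The order of the 10 genes by scaled count per kb of gene length changed with the hairpin. In the control it ran H19 (2097 ± 86.4, SD, n = 2), IGFBP4, IGFBP2, IGFBP5, IGF2R, IGF2BP3, IGF1R, IGF2 (106 ± 11.9), INSR and IGF2BP1 (0.698 ± 0.0609), where the IGFBP4 and IGFBP2 libraries overlapped. Under the CSA hairpin IGF2 (588 ± 20.8) stood in the fifth place, above IGF2R. Under the CSB hairpin IGFBP5 (3396 ± 119) led, H19 (298 ± 3.22) stood in the fifth place and IGF2 (7.87 ± 0.316) in the ninth, below INSR. The IGF2BP3 and IGF1R libraries overlapped there. All other neighbours in these 3 orders were apart in both libraries.

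At an adjusted p below 0.05 in the limma fit over all genes, the CSA hairpin had 3 of the 10 genes higher (IGF2, H19, IGF2BP3) and 3 lower (IGFBP2, IGFBP4, IGFBP5), where 8.37% of all tested genes were higher and 10.4% lower. The CSB hairpin had 6 higher (IGF1R, IGF2R, the 3 IGFBPs, IGF2BP3) and 2 lower (IGF2, H19), where 14.8% of all genes were higher and 8.86% lower. Between CSB and CSA, 5 were higher in CSB and 3 lower, where 18.1% of all genes were higher and 11.3% lower. As these contrasts chose the genes, nothing is read from the counts. With TMM scaling the CSB calls against the control split into 3015 higher and 3304 lower over all genes, in place of 4191 and 2515, and 5 and 2 of the 10 genes remained past the threshold, IGF2BP3 being the one lost. The CSB to CSA calls split into 4170 higher and 4069 lower, in place of 5128 and 3212, with the same 5 and 3 members. Leaving out 1 library also thinned the CSB calls of the 10 genes against the control. Without either CSB replicate 3 were higher (IGF2R, IGFBP4, IGFBP5), without either control replicate 4 (IGF1R, IGFBP2, IGFBP4, IGFBP5), and without either CSA replicate 5 (all but IGF2BP3), while IGF2 and H19 were lower in each. The CSA calls and those between CSB and CSA were the same genes without any 1 library.

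The rest of the pathway was read from lists of 110 further genes, of which 101 were tested. Against the control, 23 rose and 28 fell under the CSA hairpin, and 29 rose and 15 fell under the CSB hairpin. With TMM scaling the split under the CSB hairpin was 19 higher and 22 lower. That split was not taken list by list. Over all tested genes, 8.37% were higher and 10.4% lower with CSA, and 14.8% and 8.86% with CSB. Whether the lists differ from these shares was not tested. The median log2 difference over the 101 genes was 0.01 for CSA and 0.11 for CSB, beside 0.00 and 0.10 over all tested genes. Between CSB and CSA, 39 were higher in CSB and 22 lower, or 31 and 28 with TMM scaling. Of all tested genes, 18.1% were higher and 11.3% lower there. The 3 counts did not depend on the libraries alike. The CSA count fell without any 1 library, most without either control replicate and least without CSA replicate 1. The CSB count fell strongly without either control or either CSB replicate, and changed little or not at all without a CSA replicate. The count between CSB and CSA fell most without either CSB replicate and less without any other library.

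Of the 12 tested genes on the list of ligands, binding proteins and proteases, 3 rose (IGF2-AS, IGFBPL1, PAPPA2) and 4 fell (IGFBP3, IGFBP7, PAPPA, STC2) under the CSA hairpin, with a median log2 difference of -0.35. No ligand on that list was tested. It also holds the receptor INSRR, the RNA-binding protein IGF2BP2, the antisense RNA IGF2-AS and the protease inhibitor STC2. Over all tested genes, 8.37% were higher and 10.4% lower with CSA, and 14.8% and 8.86% with CSB. The CSA call of IGF2-AS, which rests on few reads, was lost without control replicate 1, either CSA replicate or either CSB replicate (log2 difference 2.16 to 4.77, adjusted p up to 0.238). Under the CSB hairpin 2 rose (INSRR, IGFBP3) and 2 fell (IGFBPL1, PAPPA2), with a median of 0.31. IGFBP3, the main serum IGF carrier, was at 5910.1 and 5758 scaled counts in the control, 4275 and 4143 under the CSA hairpin and 10089.5 and 9773 under the CSB hairpin. It fell with CSA (log2 difference -0.47 ± 0.05 SE, limma adjusted p = 2.24e-05) and rose with CSB (0.77 ± 0.05 SE, adjusted p = 4.68e-07). IGFBPL1, a secreted IGFBP-like protein, went the other way: 1343 and 1258 in the control, 2074 and 2155 under the CSA hairpin, 915 and 937 under the CSB hairpin (limma adjusted p = 4.11e-06 and 6.06e-05). IGFBP7, at 36.8 and 51.1 in the control, fell to 16.3 and 7.63 with CSA (adjusted p = 0.00182) and was at 59.5 and 61.1 with CSB (adjusted p = 0.383). The CSA call of IGFBP7 was lost without either control replicate, CSA replicate 2 or either CSB replicate (log2 difference -2.36 to -1.36, adjusted p up to 0.147).

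Proteases that free IGFs moved apart. PAPPA, which cuts IGFBP4, was at 388 and 349 scaled counts in the control, 152 and 169.8 under the CSA hairpin and 383 and 422 under the CSB hairpin. It fell with CSA (log2 difference -1.19 ± 0.10 SE, limma adjusted p = 4.47e-06) and did not pass with CSB (adjusted p = 0.418). Its relative PAPPA2, which cuts IGFBP3 and IGFBP5, was at 10.9 and 23.1, then 130.1 and 109.7, then 7.71 and 4.13. PAPPA2 rose with CSA (log2 difference 2.83 ± 0.39 SE, adjusted p = 0.000268) and fell with CSB (-1.35 ± 0.39 SE, adjusted p = 0.0259). STC2, a secreted inhibitor of PAPPA, fell with CSA, from 316 and 344 to 74.8 and 123 (adjusted p = 2.09e-05). With CSB it was at 235 and 233, below both control libraries, and did not pass (log2 difference -0.50 ± 0.18 SE, adjusted p = 0.0648), though it did in 9 of 16 alternative settings (-0.59 to -0.44, adjusted p up to 0.472). Between CSB and CSA directly, PAPPA differed by 1.32 ± 0.10 SE and PAPPA2 by -4.17 ± 0.39 SE on the log2 scale (limma adjusted p = 6.77e-07 and 4.98e-06). The CSB call of PAPPA2 was lost without any 1 of the 6 libraries and with only the 2 groups compared (log2 difference -1.85 to -0.84, adjusted p up to 0.36), and its CSA call without control replicate 1, either CSA replicate or CSB replicate 2 (2.32 to 3.33, adjusted p up to 0.0906). The CSA call of STC2 was lost without either control or either CSB replicate (-2.13 to -1.42, adjusted p up to 0.0667). IGF1, INS, the readthrough gene INS-IGF2 and STC1 had no row in any library.

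Summed over IGFBP1 to IGFBP7, the binding proteins reached 5368 and 5258 scaled counts per kb in the control, 3591 and 3703 under the CSA hairpin and 9414 and 9515 under the CSB hairpin. IGFBP5 made up 21.7% and 21.5% of that sum in the control, 19.9% and 19.97% under the CSA hairpin and 35.2% and 36.6% under the CSB hairpin. The shares of IGFBP2 and IGFBP4 were lowest in CSB, near 20.1% and 19.1%. IGFBP5 was at 0.830 and 0.865 of IGFBP2 per kb in the control and at 1.75 and 1.82 under the CSB hairpin.

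**Figure D3:**
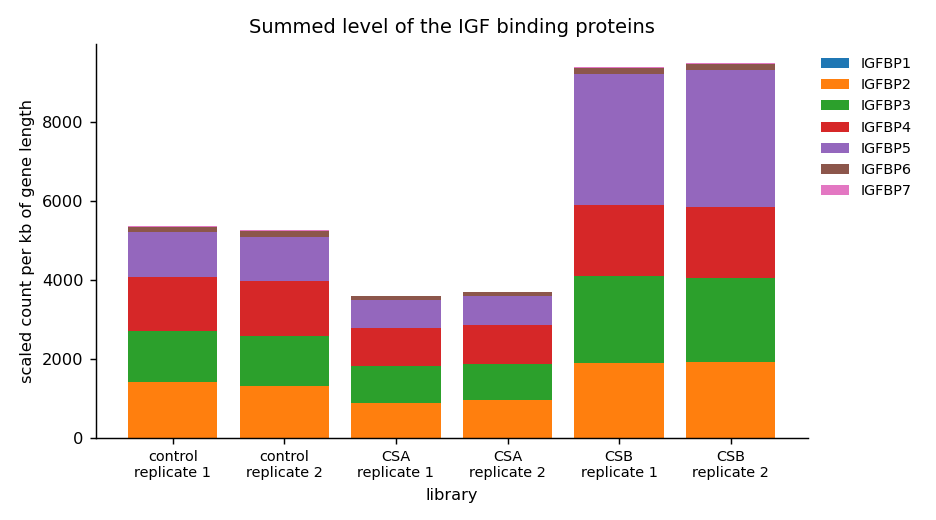
Scaled counts per kb of gene length of IGFBP1 to IGFBP7, stacked, in each of the 6 libraries. The CSA stacks reach 3591 and 3703, the control stacks 5368 and 5258, and the CSB stacks 9414 and 9515 with the IGFBP5 layer the thickest.

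Among 38 tested genes of IGF receptor signalling, 10 rose and 7 fell under the CSA hairpin and 13 rose and 4 fell under the CSB hairpin, with medians of 0.02 and 0.15. Over all tested genes, 8.37% were higher and 10.4% lower with CSA, and 14.8% and 8.86% with CSB. IRS1, the docking protein of the IGF1 and insulin receptors, was at 382 and 373 scaled counts in the control, 284 and 278 with CSA and 575 and 631 with CSB. Its log2 differences were -0.42 ± 0.08 SE and 0.67 ± 0.08 SE (limma adjusted p = 0.00209 and 5.72e-05). FOXO1, a transcription factor that insulin signalling keeps out of the nucleus, was at 224 and 243, then 137 and 132, then 379 and 412, with adjusted p = 0.000105 and 0.000122. PIK3R3, a regulatory subunit of PI3-kinase, followed the same order, with log2 differences of -1.01 ± 0.06 SE and 0.33 ± 0.06 SE (adjusted p = 3.75e-07 and 0.00182). Not all genes on the list took this order. GRB2 went the other way, by 0.17 ± 0.05 SE with CSA and -0.59 ± 0.05 SE with CSB (limma adjusted p = 0.022 and 3.03e-06). PTPN11 fell with CSB by 0.35 ± 0.05 SE (limma adjusted p = 0.00018) and did not pass with CSA (adjusted p = 0.121). INSRR, the orphan relative of the insulin receptor, rose with CSB by 0.63 ± 0.08 SE (adjusted p = 9.59e-05) and did not pass in CSA (adjusted p = 0.159). Without either control or either CSB replicate the CSB calls of INSRR (log2 difference 0.54 to 0.69) and PIK3R3 (0.24 to 0.35) were lost, with adjusted p up to 0.0919 and 0.0832. The CSA call of IRS1 was lost without either control replicate or CSA replicate 2 (-0.44 to -0.41, adjusted p up to 0.0928).

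Of 19 tested factors that act at the IGF2-H19 domain, 1 rose and 9 fell under the CSA hairpin, and 4 rose and 3 fell under the CSB hairpin. Over all tested genes, 8.37% were higher and 10.4% lower with CSA, and 14.8% and 8.86% with CSB. PLAGL1, an imprinted zinc-finger factor known to bind at this domain, was at 351 and 332 scaled counts in the control, 235 and 188 with CSA and 489.9 and 516 with CSB (limma adjusted p = 0.000498 and 0.00196). UHRF1, which recruits the maintenance DNA methyltransferase, fell with CSA by 0.48 ± 0.06 SE (adjusted p = 0.000185) and did not pass with CSB (log2 difference -0.11, adjusted p = 0.251), where it passed in 4 of 16 alternative settings (-0.20 to -0.10, adjusted p up to 0.616): TMM scaling, edgeR, DESeq2 and only the 2 groups compared. TET2, a methylcytosine dioxygenase, rose with CSB by 0.40 ± 0.08 SE (adjusted p = 0.00196). All 4 calls of these 3 genes were lost without either control or either CSB replicate, with adjusted p up to 0.115 and 0.179 for PLAGL1 (log2 difference -0.86 to -0.54 with CSA, 0.47 to 0.60 with CSB), 0.0895 for UHRF1 (-0.59 to -0.38) and 0.173 for TET2 (0.32 to 0.46).

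Of 19 tested IGF2BP partners and genes of the LIN28-let-7 pathway, 4 rose and 7 fell under the CSA hairpin and 4 rose and 1 fell under the CSB hairpin. For this list and the sorting genes below, the shares over all tested genes were 8.37% higher and 10.4% lower with CSA. With CSB they were 14.8% and 8.86%. LIN28B, which blocks let-7 maturation, was at 246 and 255 scaled counts in the control, 436 and 410.1 with CSA and 259.8 and 277 with CSB. It rose with CSA (log2 difference 0.75 ± 0.09 SE, limma adjusted p = 5.44e-05; CSB adjusted p = 0.456). MIRLET7BHG, a host transcript of the let-7 entries printed above, those on chromosome 22, was at 299 and 314, then 231 and 247, then 468 and 484. It fell with CSA (adjusted p = 0.00861) and rose with CSB (adjusted p = 0.000138). MYCN, the neuroblastoma oncogene, rose with CSB from 116 and 119 to 264 and 248 (log2 difference 1.12 ± 0.13 SE, adjusted p = 6.06e-05). ELAVL1, an RNA-stabilising protein, fell with CSA by 0.54 ± 0.06 SE (adjusted p = 3.32e-05). In the 13 genes of mannose 6-phosphate sorting, the route that uses IGF2R, 5 rose and 1 fell with CSA and 6 rose and 5 fell with CSB, and M6PR, the smaller receptor of that route, rose with CSA by 0.38 ± 0.05 SE (adjusted p = 0.000384). The CSA call of MIRLET7BHG was lost in DESeq2 and without any 1 library but CSA replicate 2 (log2 difference -0.41 to -0.31, adjusted p up to 0.123). Calls were also lost for MYCN without either CSB replicate (1.03 to 1.16, adjusted p up to 0.062), for ELAVL1 without control replicate 1 (-0.61 to -0.47, up to 0.0516) and for M6PR without either control replicate (0.34 to 0.42, up to 0.068).

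Of 20 neighbouring genes within 1 Mb of the IGF2-H19 span whose mean reached 50 scaled counts in some group, 5 rose and 3 fell under the CSA hairpin and 9 rose and 1 fell under the CSB hairpin. Over all tested genes, 8.37% were higher and 10.4% lower with CSA, and 14.8% and 8.86% with CSB. Whether the neighbours differ from these shares was not tested, and the 2 rest on unlike levels. The shares take in all genes with a group mean of at least 1. With a filter of 10, 2848 of 18321 genes were higher and 3371 lower with CSA, and 4771 and 2809 with CSB. The CSB calls of the risers BRSK2 and MOB2 were lost with TMM and upper quartile scaling, in edgeR and in DESeq2. Both were also lost with a pseudocount of 0.5, with no filter, and without either control or either CSB replicate. That of BRSK2 was lost without CSA replicate 2 too. Over the 16 alternative settings the CSB differences of BRSK2 and MOB2 ran from 0.13 to 0.27 and from 0.17 to 0.31. The log2 differences of the 20 genes ran from -0.47 to 1.35 with CSA and from -0.23 to 0.97 with CSB, so that none of these 20 reached those of IGF2 or H19 in either group. LSP1, a leukocyte-specific actin-binding protein, had the same order of groups as IGF2 and H19 at a low level, with 40.8 and 36.7 scaled counts in the control, 54.2 and 48.6 with CSA and 34.1 and 33.8 with CSB, and neither difference passed (log2 0.40 and -0.18, limma adjusted p = 0.261 and 0.63). IGF2-AS, below that level, had the most reads in the CSA libraries, as given above. Also below it, KRTAP5-1 rose with CSA (limma adjusted p = 0.00855), while TH and PHLDA2 fell with CSA (limma adjusted p = 0.0146 and 0.0037). Those genes had few reads. MRPL23-AS1, the nearest of the 20, has its start 11.55 kb from that of H19 and overlaps MRPL23. It was at 94.5 and 92.6 scaled counts in the control, 91.0 and 111.6 with CSA and 80.4 and 78.4 with CSB. Its CSB libraries lay below both control libraries, its CSA libraries overlapped them, and neither difference passed (log2 0.11 and -0.23, limma adjusted p = 0.705 and 0.333). MRPL23, a mitochondrial ribosomal protein whose start lies 54.2 kb from that of H19, was at 1661 and 1756 scaled counts in the control, 1681 and 1585 with CSA and 1633 and 1564 with CSB (limma adjusted p = 0.502 and 0.28). DUSP8, a phosphatase of MAP kinases 429.6 kb away, was at 1476 and 1374, then 3344 and 3674, then 1755 and 1791, and rose in both (adjusted p = 5.26e-08 and 0.00219). KRTAP5-AS1 overlaps DUSP8, and IFITM10 lies nearer to H19. They rose by 1.35 ± 0.11 SE and 1.22 ± 0.13 SE with CSA (limma adjusted p = 3.31e-06 and 3.25e-05). Both also rose with CSB, by 0.93 ± 0.11 SE and 0.59 ± 0.13 SE (limma adjusted p = 5.37e-05 and 0.00498). Over the 16 alternative settings these CSB differences ran from 0.83 to 1.03 and from 0.40 to 0.79. The CSB call of KRTAP5-AS1 was lost without CSB replicate 2. That of IFITM10 was lost without control replicate 1, either CSA replicate or either CSB replicate. Reads of overlapping genes there cannot be told apart without strand. The CSB call of DUSP8 was lost without either control or either CSB replicate (log2 difference 0.23 to 0.37, adjusted p up to 0.156) and the CSA call of IFITM10 without CSA replicate 2 (1.02 to 1.41, adjusted p up to 0.0535).

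CTSD, a lysosomal protease 237.5 kb from H19, took the order of the binding proteins, at 981 and 902 scaled counts in the control, 676 and 682 with CSA and 1302 and 1289 with CSB (limma adjusted p = 0.000182 and 0.000166). On the other side, the imprinted growth inhibitor CDKN1C rose with CSB by 0.40 ± 0.09 SE (adjusted p = 0.00681) and SLC22A18 by 0.97 ± 0.09 SE (adjusted p = 1.13e-05). KCNQ1OT1, the noncoding RNA of the neighbouring imprinted domain, fell with CSA by 0.34 ± 0.10 SE (adjusted p = 0.0379), a call lost without any 1 library, in DESeq2 and with only the 2 groups compared (-0.40 to -0.28, adjusted p up to 0.239). The CSB call of CDKN1C was likewise lost without any 1 library (0.29 to 0.51, adjusted p up to 0.28), and that of CTSD without either CSB replicate (0.37 to 0.52, adjusted p up to 0.0524). Around IGFBP2 and IGFBP5, a window added after values had been seen, 9 genes whose mean reached 50 scaled counts in some group were compared. With CSA 2 rose and 3 fell. With CSB none rose and 3 fell (MREG by 0.52, TMEM169 by 0.67 and XRCC5 by 0.18 on the log2 scale). Over all tested genes, 8.37% were higher and 10.4% lower with CSA, and 14.8% and 8.86% with CSB. As above, these shares take in genes of lower level than the 9. TMEM169 rose with CSA and fell with CSB (log2 difference 0.31 and -0.67, adjusted p = 0.0335 and 0.000194), while IGFBP2 and IGFBP5 were lower with CSA and higher with CSB. Its CSA call was lost without any 1 library and with no filter on low values (0.22 to 0.40, adjusted p up to 0.379), its CSB call without control replicate 2 or either CSB replicate (-0.78 to -0.56, adjusted p up to 0.0812). Those of MREG and XRCC5 were lost without control replicate 2 or either CSB replicate, with adjusted p up to 0.115 and 0.185, and that of XRCC5 without control replicate 1 too.

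**Figure D4:**
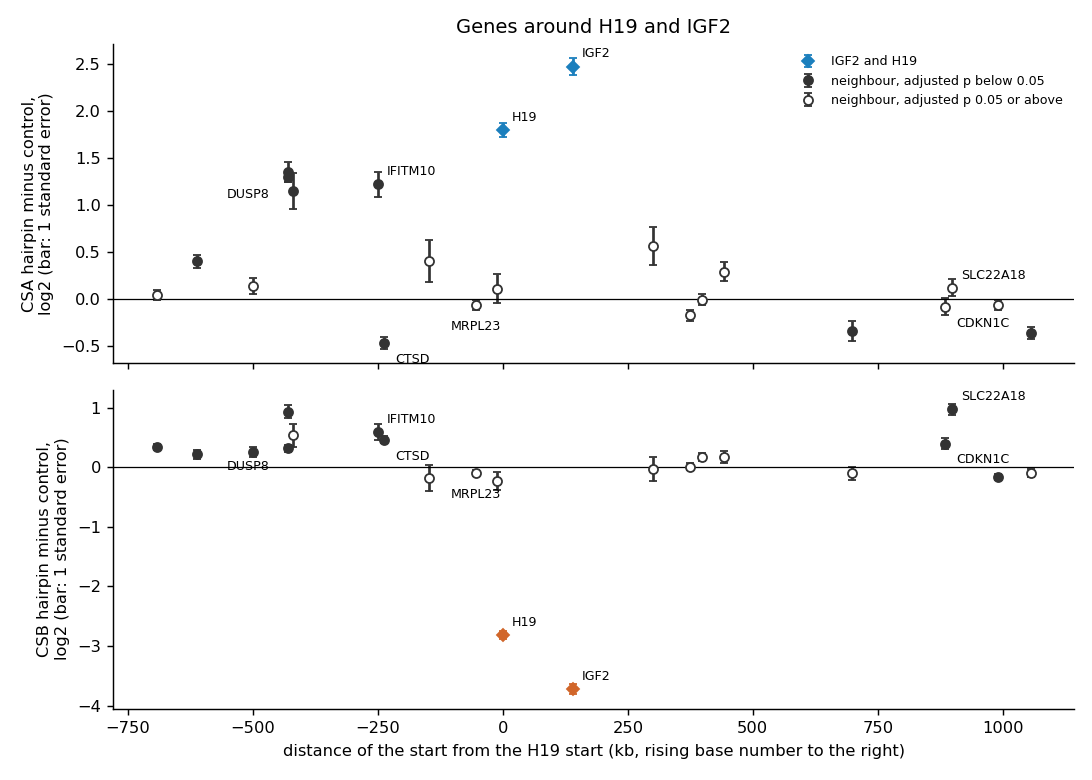
Difference from the control on the log2 scale (vertical, bar 1 standard error) against the distance of each gene's start from the H19 start in kb, for CSA (upper) and CSB (lower); diamonds are H19 and IGF2, filled circles neighbours with adjusted p below 0.05, open circles the others. In the lower panel H19 and IGF2 lie at -2.81 and -3.73 while the 20 neighbours drawn, those with a mean of at least 50 scaled counts in some group, lie between -0.23 and 0.97.

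The genes nearest to IGF2 and H19 in their values were sought among 13397 genes by the Euclidean distance of log2(scaled count + 1), set to the control mean, over the 6 libraries. For IGF2 these were FGL1 (distance 0.832), CCDC68 (1.01), KIAA0125 (1.26), INSM2 (1.36) and H19 (1.61). For H19 they were RTL1 (0.509), FGL1 (0.837), RIT2 (1.22), AL117190.1 (1.34) and ARHGAP36 (1.48), with IGF2 at rank 7. RTL1, a paternally expressed imprinted gene on chromosome 14, was at 966 and 1028 scaled counts in the control, 3721 and 3541 with CSA and 146 and 187 with CSB. INSM2, a zinc-finger relative of the neuroendocrine factor INSM1, was at 399.8 and 406 in the control, 2506 and 2502 with CSA and 14.3 and 15.7 with CSB. AL117190.1, a miRNA entry at chr14:100903597-100903716, lies close to RTL1 at chr14:100880655-100884847, and both had the same order of groups. These 2 likenesses to H19 lie in 1 stretch of chromosome 14 and are not counted as separate. Whether the 2 genes share their regulation was not tested. These likenesses rest on 6 libraries and 3 groups, and some of the genes were low: CCDC68 had 0 and 1 reads under the CSB hairpin.

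**Figure D5:**
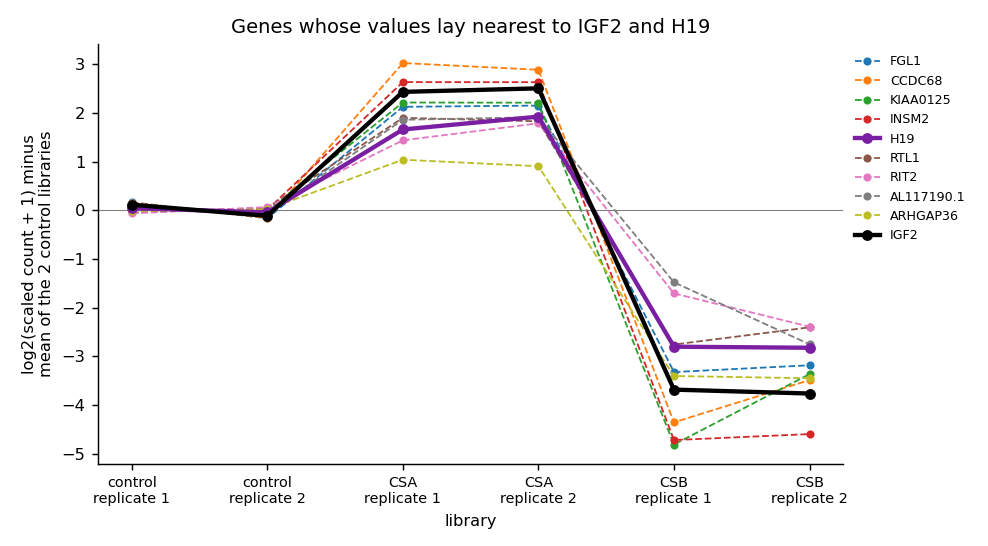
log2(scaled count + 1) minus the mean of the 2 control libraries, in the 6 libraries, for IGF2 (black), H19 (purple) and the genes nearest to them (dashed). All lines rise in the CSA libraries and drop below 0 in the CSB libraries, with ARHGAP36 the lowest in CSA and RIT2 and AL117190.1 the highest in CSB replicate 1.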

How the data were processed

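RNA of 6 SH-SY5Y libraries was read in paired-end mode (labels and series text). Per the submitters' processing notes, FastQC and HISAT2 2.0.4 were used with hg38; the counting tool, strand setting, annotation version and scaling method are unstated in those notes and in the labels. The deposited column is headed FPKM, but its values are a signal per gene that the authors made by dividing whole read counts by 1 factor per library: 100% of values were whole multiples of the library's smallest value (tolerance 0.01). Genes without a row were taken as 0. Groups follow the labels.

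limma 3.58.1 (R 4.3.3) was fitted with a trend to log2(scaled count + 1) of all 6 libraries in 3 groups (3 residual degrees of freedom) for 28388 genes with a group mean of at least 1, with Benjamini-Hochberg adjustment over all of them; SE is limma's. Differences are on that log2 scale and understate low genes. Folds are ratios of group means. The pipeline was tested on simulated data. Levels per kb use the deposited gene length. 7 of the 10 spans equal GENCODE v29. Named genes are the 10, all 16 genes on the list of ligands, binding proteins and proteases, of the other lists the largest called differences (with GRB2 and PTPN11 added), neighbours within 1 Mb with a mean of at least 50, and the 5 nearest genes. Members and lists were chosen with earlier results of these data known. Alternatives were pseudocounts of 0.5 and 5, no filter or one of 10, TMM and upper quartile scaling, edgeR 4.0.16 and DESeq2 1.42.0 on recovered reads, a replicate block, only the 2 groups compared, and leaving out each library.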

Additional observations from a re-analysis of the deposited data

How the results depend on the processing

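The 10 genes kept the sign of every difference of 0.10 or more on the log2 scale under all 16 alternatives, except IGF2BP1 in CSB, whose log2 difference ran from -0.77 to 0.33; IGF2 ran from 2.35 to 2.58 in CSA and from -3.85 to -3.61 in CSB, and H19 from 1.66 to 1.92 and from -2.90 to -2.77. INSR between CSB and CSA ran from -0.02 to 0.14. The count of pathway genes called was 51, 44 and 61 (CSA to control, CSB to control, CSB to CSA). Leaving out 1 library moved it to between 11 and 36, between 11 and 44, and between 29 and 51; the lone library is then assumed to vary like the other groups. All other settings stayed within 1.5 times, with 48, 40 and 59 calls in DESeq2. With the replicate block, the counts were 49, 44 and 57. The numbers share only a name: differences between replicates 1 and 2 correlated at -0.04, -0.032 and -0.032 across 13397 genes, which are not independent replicates. TMM and upper quartile scaling moved the median of all genes by at most 0.0801 on the log2 scale. Of the calls compared for genes outside the 10, 257 of the losses came from leaving out a library and 60 from other settings, and no called difference changed sign. Depth limits IGF2BP1, IGF2BP2 and IGF2-AS, and groups of 2 libraries are too small for a test of outlying libraries.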
